A study of Mus musculus with 9 samples.

Results

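Integrins are the cell-surface receptors by which endothelial cells hold on to the basement membrane. The 9 subunits described here are Itgb1, Itgb3 and Itgb5, which encode β chains, and Itga1, Itga3, Itga4, Itga5, Itga6 and Itgav, which encode α chains. They were chosen by name, not by their values, from the 23420 genes of a count matrix of mouse brain endothelial RNA, and all 9 were among the 13317 genes with enough counts to test. The RNA came from cells sorted out of brain homogenate as CD31-positive and CD45-negative, that is, carrying the endothelial protein CD31 and lacking the leukocyte protein CD45. There were 3 genotypes with 3 libraries each, all from C57BL/6 mice 6 months old and labelled male: APP/PS1xRIPK1KD, APP/PS1 and WT. APP/PS1 mice are a transgenic model of cerebral amyloid deposition. APP/PS1xRIPK1KD mice carry the same transgenes and an alteration of Ripk1, a kinase of inflammatory and necroptotic signalling. The sources used here do not spell out KD and do not give the promoter of the transgenes. The labels name 1 mouse for each library, and 20000 cells went into each.

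An integrin is a heterodimer of 1 α and 1 β chain, and neither chain normally reaches the cell surface without the other. The β1 chain pairs with α1 (a collagen and laminin receptor), α3 and α6 (laminin receptors), α4 (a receptor for VCAM-1 and fibronectin), α5 (the classical fibronectin receptor) and αv. The αv chain also pairs with β3 and β5 to bind ligands with an RGD motif, such as vitronectin. In brain vessels, integrins of the β1 class tie the endothelium to a basement membrane of laminins and type IV collagen.

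Total expected counts per library lay between 16263792 in APP/PS1 replicate 1 and 52413200 in APP/PS1 replicate 3, with a median of 46603518. Endothelial markers were detected in each library, 10 of 10 of them, and summed to 19700 to 21200 CPM in APP/PS1xRIPK1KD, 18300 to 21400 CPM in APP/PS1 and 19600 to 21200 CPM in WT (CPM, counts scaled to a common library size, here that of the tested genes after TMM scaling). Although the labels give male mice throughout, Xist stood at 264 to 534 CPM in replicates 1 and 2 of each genotype, while replicate 3 of each genotype held 150 to 185 CPM of Y-linked transcripts. Results are therefore also given for replicates 1 and 2 alone where that changes a direction or a call. Ripk1 itself was present in every library, at 31.4, 44.9 and 35.5 CPM in APP/PS1xRIPK1KD, 75.3, 52.9 and 40.9 CPM in APP/PS1 and 45.0, 48.1 and 34.9 CPM in WT. Since KD is not spelled out, its level does not check the label.

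The subunits formed a high and a low tier when their counts were divided by exon length, which is needed to compare levels between genes. Itgb1 stood far above the others at 113.8 CPM per kb on average over the 9 libraries. Next came 4 α chains, Itga6 at 17.5, Itga1 at 15.1, Itga5 at 14.3 and Itga3 at 10.2 CPM per kb. The low tier held Itgav at 1.29, Itgb5 at 1.02, Itgb3 at 0.961 and Itga4 at 0.503 CPM per kb. The step below Itgb1 was 6.5-fold and the step below Itga3 was 7.94-fold, and each held in 9 of 9 libraries with no overlap of the ranges. Within a tier, neighbours overlapped: Itga6 exceeded Itga1 in 8 of 9 libraries, Itga1 exceeded Itga5 in 5 of 9, Itga5 exceeded Itga3 in 8 of 9, and Itgb5 exceeded Itgb3 in 5 of 9. The order was the same with the length of the longest transcript, and the members' exons in the GENCODE M21 annotation covered between 3.55 kb for Itgb5 and 18.60 kb for Itga1.

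**Figure D1:**
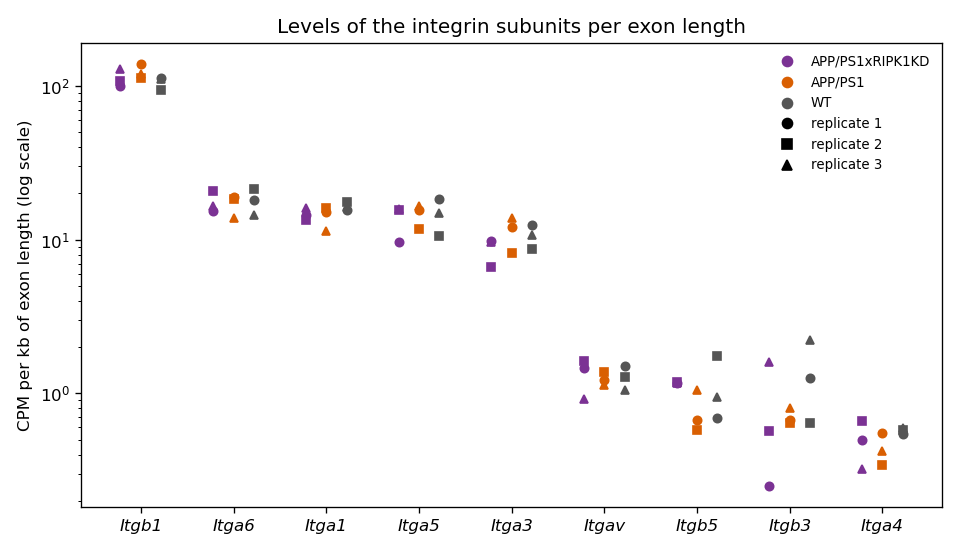
Level of each integrin subunit in CPM per kb of exon length (y axis, log scale) in each of the 9 libraries, with genotype by colour and replicate number by symbol, ordered by the mean. Itgb1 at 93.5 to 139 CPM per kb lies above all others, and a gap separates Itga3, at 6.63 or more, from Itgav, at 1.63 or less.

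All 9 are protein-coding genes. On GRCm38, Itgb1 lies on chromosome 8 from 128685654 to 128733200 (plus strand), Itgb3 on chromosome 11 from 104608000 to 104670476 (plus) and Itgb5 on chromosome 16 from 33829665 to 33949338 (plus). The α genes Itga6 (71745616 to 71858416), Itga4 (79255426 to 79333123) and Itgav (83724397 to 83806916) lie on the plus strand of chromosome 2. Itga1 lies on chromosome 13 from 114953096 to 115101964, Itga3 on chromosome 11 from 95044474 to 95076801 and Itga5 on chromosome 15 from 103344286 to 103366763, each on the minus strand. The protocol keeps no strand, so reads from overlapping exons cannot be assigned with certainty. Such overlap covered 8.04% of the Itga4 exon bases (Cerkl, opposite strand), 5.9% of Itgav (Gm13684, opposite strand) and 3.68% of Itga1 (Gm49395, same strand). The expected counts of Itgb1, Itga1, Itga4 and Itga6 were more than 0.005 from a whole number in all 9 libraries, the form that RSEM gives where reads are shared between genes, so their levels carry that uncertainty.

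Among the 3 β chains described here, Itgb1 supplied nearly all of the transcripts. Itgb1 had 409, 443 and 525 CPM in replicates 1, 2 and 3 of APP/PS1xRIPK1KD, 566, 457 and 486 CPM in APP/PS1, and 463, 382 and 451 CPM in WT. The highest library was an APP/PS1 one and the lowest a WT one, but the 3 genotypes overlapped. Per exon length, Itgb1 made up 97.9% to 98.6% of the summed level of Itgb1, Itgb3 and Itgb5 in APP/PS1xRIPK1KD, 98.5% to 99.0% in APP/PS1 and 97.2% to 98.3% in WT. In this share the 3 APP/PS1 libraries lay above the 3 WT libraries, while APP/PS1xRIPK1KD overlapped both, and no test was made of it. With Itgb4, the β chain of α6β4, added to the sum, the share was 94.6% to 97.0% in APP/PS1xRIPK1KD, 94.0% to 96.8% in APP/PS1 and 93.2% to 95.3% in WT, and the genotypes overlapped. Between APP/PS1 and WT its log2 fold change was 0.22 ± 0.138 (SE), a fold of 1.16 with a 95% interval of 0.946 to 1.43 (edgeR quasi-likelihood test, FDR 0.861), and leaving out 1 library at a time gave 0.127 to 0.283.

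Itgb3, the β chain of the vitronectin receptor and of the platelet fibrinogen receptor, varied most between libraries. It had 1.47, 3.36 and 9.46 CPM in APP/PS1xRIPK1KD, 3.97, 3.80 and 4.71 CPM in APP/PS1, and 7.43, 3.80 and 13.0 CPM in WT. The highest and lowest libraries differed 8.87-fold, and replicate 3 was the highest library of each genotype. Over all tested genes, 4.1% were highest in replicate 3 of each genotype. The biological coefficient of variation, the spread that edgeR estimates beyond counting error, was 0.54 for Itgb3, and 16.7% of the 2369 genes within 2-fold of its mean level had a higher one. The counts behind these values ran from 63 to 609.

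The Itgb3 means were 4.76 ± 4.18 CPM in APP/PS1xRIPK1KD, 4.16 ± 0.483 CPM in APP/PS1 and 8.09 ± 4.65 CPM in WT (SD, n = 3 each). The log2 fold change was -0.96 ± 0.62 (SE) for APP/PS1 against WT, a fold of 0.514 with an interval of 0.202 to 1.31 (edgeR quasi-likelihood test, FDR 0.867). It was -0.76 ± 0.615 for APP/PS1xRIPK1KD against WT, with an interval in fold of 0.233 to 1.49 (FDR 0.958). Neither passed the threshold, and the intervals leave room for a drop of several-fold as well as for a rise. Single libraries moved both values. For APP/PS1xRIPK1KD against WT the value was -1.74 without APP/PS1xRIPK1KD replicate 3 (unadjusted p 0.0143, FDR 0.721 in the same test), -0.33 without APP/PS1xRIPK1KD replicate 1 (p 0.577) and -0.24 without WT replicate 3 (p 0.731). For APP/PS1 against WT it was -0.43 without WT replicate 3 and -1.3 without WT replicate 2. For APP/PS1xRIPK1KD against APP/PS1 the value was 0.20 ± 0.616, and -0.69 with replicates 1 and 2 alone.

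Itgb3 is also a platelet gene, and transcripts of other platelet genes were low. Itga2b, which encodes the platelet α chain that pairs with β3, had 2.45, 3.90 and 0.595 CPM in APP/PS1xRIPK1KD, 0.441, 0.485 and 0.417 CPM in APP/PS1, and 1.80, 1.66 and 1.16 CPM in WT. Within each genotype, Itga2b was lowest in replicate 3, the library where Itgb3 was highest. Over all tested genes, 3.21% were lowest in replicate 3 of each genotype. The Itga2b counts in APP/PS1 were only 7, 26 and 21. The 6 platelet markers other than Itgb3 summed to 3.84 to 10.3 CPM in APP/PS1xRIPK1KD, 2.12 to 3.52 CPM in APP/PS1 and 3.75 to 6.01 CPM in WT. In replicate 3 the sum of these 6 markers was 3.84, 2.92 and 6.01 CPM, the lowest, the middle and the highest library of these genotypes. Of these 6, 5 had counts in every APP/PS1xRIPK1KD library, 4 in every APP/PS1 library and 3 in every WT library. Their part in the Itgb3 values was not tested. In bulk samples, fewer cells of a type and less RNA per cell cannot be told apart.

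Itgb5, the β chain of the other vitronectin receptor, was the only member whose libraries did not overlap between a pair of genotypes. It had 4.14, 4.22 and 4.13 CPM in APP/PS1xRIPK1KD, 2.39, 2.07 and 3.72 CPM in APP/PS1, and 2.45, 6.20 and 3.36 CPM in WT. All 3 APP/PS1xRIPK1KD libraries lay above all 3 APP/PS1 libraries, which was so for 5.32% of tested genes, while WT spanned both. The log2 fold change of APP/PS1xRIPK1KD against APP/PS1 was 0.61 ± 0.499 (SE), a fold of 1.52 with an interval of 0.719 to 3.23 (edgeR quasi-likelihood test, p 0.245, FDR 1). The lowest count was 38, in APP/PS1 replicate 1, the shallowest library. Against WT, Itgb5 was at -0.55 ± 0.499 in APP/PS1 and 0.06 ± 0.495 in APP/PS1xRIPK1KD, and the second value was -0.05 with replicates 1 and 2 alone. Leaving out 1 library moved the first value between -0.85 (without APP/PS1 replicate 3) and -0.09 (without WT replicate 2), and the second between -0.20 (without WT replicate 1) and 0.52 (without WT replicate 2). Choroid plexus markers summed to 375 to 511 CPM in APP/PS1xRIPK1KD, 200 to 356 CPM in APP/PS1 and 201 to 240 CPM in WT. Microglia and macrophage markers summed to 73.8 to 96.1, 60.9 to 113 and 56.4 to 107 CPM in the same order. The part of these cell types in the Itgb5 values was not tested.

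The laminin receptor chains were among the most abundant α chains. Itga6 had 138, 187.5 and 149 CPM in APP/PS1xRIPK1KD, 170.5, 166 and 125 CPM in APP/PS1, and 163, 192 and 131 CPM in WT. Itga3 had 55.6, 37.9 and 55.1 CPM in APP/PS1xRIPK1KD, 68.6, 47.0 and 79.0 CPM in APP/PS1, and 71.4, 49.7 and 61.6 CPM in WT. Both overlapped between all genotypes, and Itga3 was lowest in replicate 2 of each. The Itga6 means stayed close together, at 158 ± 25.8, 154 ± 24.8 and 162 ± 30.5 CPM in APP/PS1xRIPK1KD, APP/PS1 and WT (SD, n = 3 each). The Itga6 interval for APP/PS1 against WT ran from 0.727 to 1.24 in fold around 0.95.

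Itga3 gave the smallest p of any member between APP/PS1xRIPK1KD and APP/PS1. Its means were 49.5 ± 10.1 CPM in APP/PS1xRIPK1KD, 64.9 ± 16.3 CPM in APP/PS1 and 60.9 ± 10.9 CPM in WT (SD, n = 3 each). The log2 fold change of APP/PS1xRIPK1KD was -0.39 ± 0.22 (SE) against APP/PS1, a fold of 0.764 with an interval of 0.548 to 1.06 (edgeR quasi-likelihood test, p 0.102, FDR 1). Without APP/PS1 replicate 2 it was -0.56 (unadjusted p 0.0207, FDR 1 in the same test), while it was -0.22 both without APP/PS1 replicate 3 (p 0.368) and without APP/PS1xRIPK1KD replicate 2 (p 0.353).

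Itga1 and Itga5 encode the collagen-binding and the fibronectin-binding partner of β1. Itga1 had 269, 251 and 298 CPM in APP/PS1xRIPK1KD, 281, 300.5 and 213 CPM in APP/PS1, and 289.9, 325 and 304 CPM in WT. The lowest 2 of the 9 libraries were APP/PS1 replicate 3 and APP/PS1xRIPK1KD replicate 2, and the highest 2 were from WT, but the ranges overlapped in each comparison. Itga1 averaged 273 ± 23.4 CPM in APP/PS1xRIPK1KD, 265 ± 46.1 CPM in APP/PS1 and 306 ± 17.5 CPM in WT (SD, n = 3 each). The log2 fold change for APP/PS1 against WT was -0.21 ± 0.143 (SE), a fold of 0.865 with an interval of 0.698 to 1.07 (edgeR quasi-likelihood test, FDR 0.886), and leaving out 1 library at a time gave -0.312 to -0.0747.

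Itga5 had 48.0, 77.3 and 78.6 CPM in APP/PS1xRIPK1KD, 76.5, 57.6 and 81.7 CPM in APP/PS1, and 91.0, 51.9 and 73.5 CPM in WT. Each genotype held 1 library below 60 CPM and others above 70 CPM, so the spread within genotypes exceeded the differences between the means of 68.0, 71.9 and 72.1 CPM. The biological coefficient of variation of Itga5 was 0.216, and 11.3% of the 3431 genes within 2-fold of its level had a higher one. By contrast Itgb1 at 0.149 and Itga1 at 0.151 had spreads close to the median of genes at their levels, 0.153 for each.

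The remaining α chains were in the low tier. Itgav had 15.8, 17.6 and 9.89 CPM in APP/PS1xRIPK1KD, 13.1, 14.8 and 12.2 CPM in APP/PS1, and 16.1, 13.8 and 11.3 CPM in WT. Replicate 3 was the lowest library of each genotype for Itgav, as it was for 3.21% of tested genes, and the genotype means of 14.4, 13.4 and 13.8 CPM differed by less than the spread within genotypes. Itga4, the partner that binds VCAM-1, had 6.96, 9.29 and 4.51 CPM in APP/PS1xRIPK1KD, 7.74, 4.77 and 5.90 CPM in APP/PS1, and 7.61, 8.12 and 8.33 CPM in WT. Its WT libraries lay within 1.09-fold of each other, and APP/PS1 reached into their range with 1 library. The log2 fold change of Itga4 for APP/PS1 against WT was -0.39 ± 0.356 (SE), with an interval in fold of 0.446 to 1.3 (edgeR quasi-likelihood test, FDR 0.926).

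**Figure D2:**
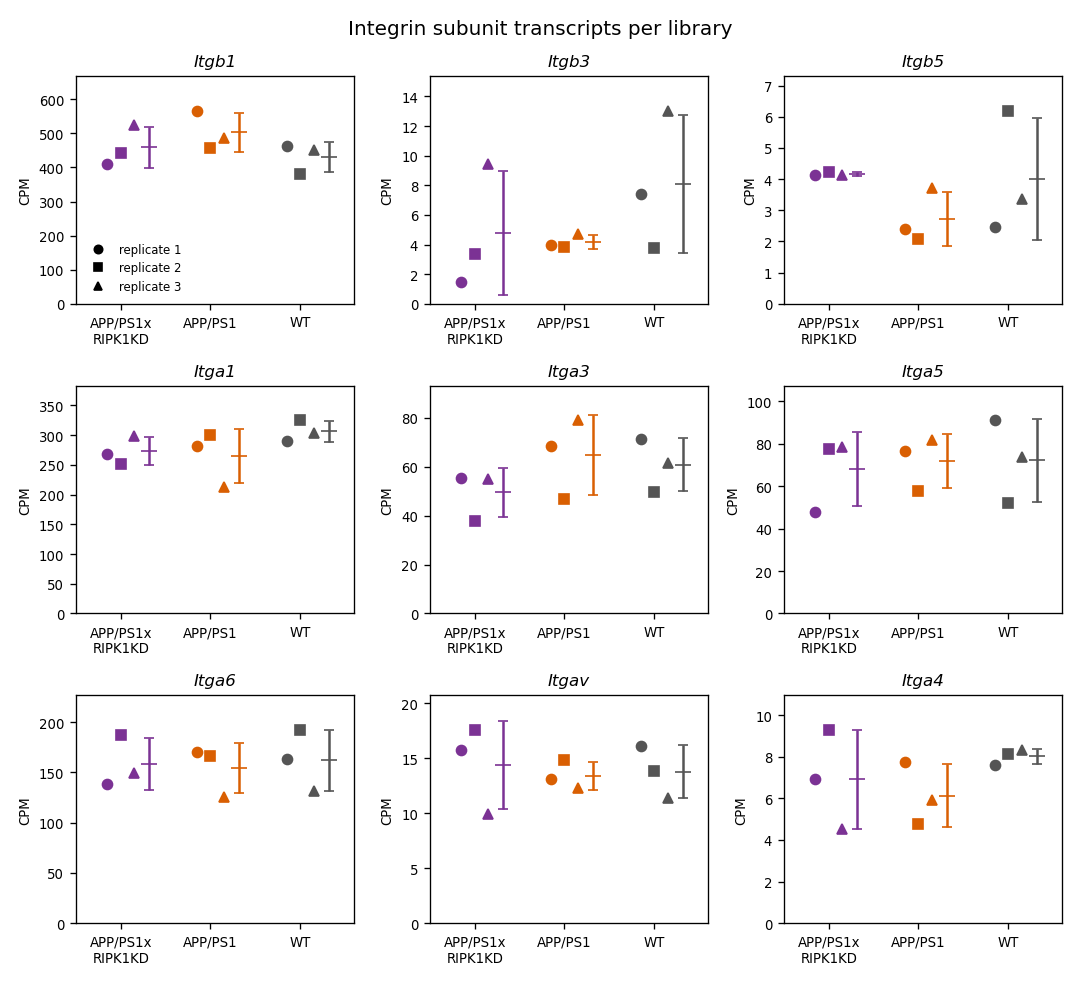
CPM of each subunit (y axes, from 0) in every library of APP/PS1xRIPK1KD, APP/PS1 and WT, with replicate number by symbol and the mean ± SD of 3 libraries beside each genotype. The genotypes overlap in every panel except Itgb5, where APP/PS1xRIPK1KD at 4.13 to 4.22 CPM lies above APP/PS1 at 2.07 to 3.72 CPM.

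Between APP/PS1xRIPK1KD and APP/PS1, which asks what altered Ripk1 changes in mice with the APP/PS1 transgenes, no integrin subunit passed the test in either direction. Of the 9 members, 0 passed an FDR of 0.05 in the edgeR quasi-likelihood test, where 0.00751% of all tested genes did, and 0 had an unadjusted p under 0.05, where 4.78% of genes did. Log2 fold changes were above 0 for 6 members, against 49.4% of all genes, and below 0 for 3, with a median of 0.042 against -0.0034 over all genes. The libraries did not overlap for 1 member, Itgb5, and for 9.98% of all genes. DESeq2 and limma-voom called 0 members too.

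Between APP/PS1 and WT, which sets mice with the transgenes against WT mice, the count was also 0 of 9 in the edgeR test (0.0225% of all genes). None had an unadjusted p under 0.05 (6.14% of genes). Values were above 0 for 2 members, Itgb1 and Itga3, against 50.2% of all genes, and below 0 for 7, with a median of -0.075 against 0.0019 over all genes. The libraries overlapped for all 9 members, while they did not for 10.9% of genes. Between APP/PS1xRIPK1KD and WT, 0 of 9 passed (0.0375% of all genes) and 0 had an unadjusted p under 0.05 (6.18% of genes). Here 3 members lay above 0, against 50.6% of all genes, and 6 below, with a median of -0.085 against 0.0031, and again all 9 overlapped, unlike 12% of genes. The 3 comparisons share libraries pairwise, so their values are not independent. DESeq2 and limma-voom called 0 members in either comparison with WT.

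How large a change these data leave possible depends on the member. In APP/PS1 against WT, the 95% interval of the fold ran from 0.946 to 1.43 for Itgb1, 0.698 to 1.07 for Itga1 and 0.727 to 1.24 for Itga6. It ran from 0.7 to 1.42 for Itga5 and from 0.765 to 1.48 for Itga3. The intervals of the low tier were wider, at 0.647 to 1.46 for Itgav, 0.446 to 1.3 for Itga4, 0.322 to 1.45 for Itgb5 and 0.202 to 1.31 for Itgb3. A 2-fold change lay outside the interval for Itgb1, Itga1, Itga6, Itga5, Itga3 and Itgav and, on the lower side, inside it for Itga4, Itgb5 and Itgb3.

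**Figure D3:**
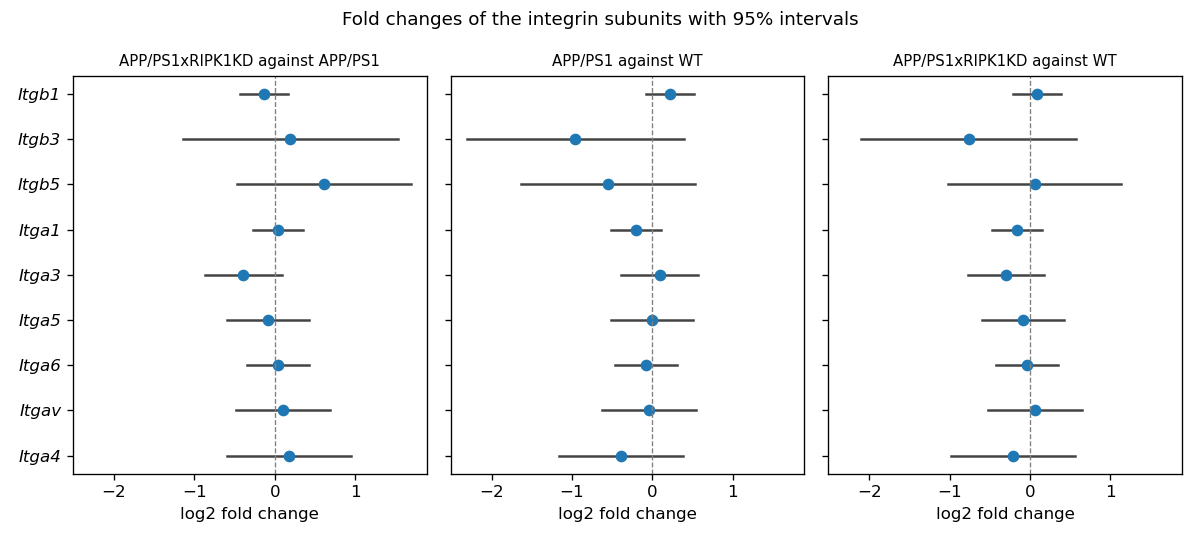
Log2 fold change of each subunit (point) with its 95% interval (line) from the edgeR model, in APP/PS1xRIPK1KD against APP/PS1, APP/PS1 against WT and APP/PS1xRIPK1KD against WT, where values above 0 are higher in the first genotype named. Every interval crosses 0, and those of Itgb3 and Itgb5 are the widest.

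The α transcripts were fewer than the β transcripts per exon length. The ratio of summed α to summed β levels was 0.497 ± 0.0419 in APP/PS1xRIPK1KD, 0.474 ± 0.0224 in APP/PS1 and 0.571 ± 0.0558 in WT (SD, n = 3 each). The 3 APP/PS1 libraries, at 0.452 to 0.497, lay below the 3 WT libraries, at 0.512 to 0.624, whereas APP/PS1xRIPK1KD, at 0.452 to 0.534, overlapped both. This separation was lost when the longest transcript gave the lengths, with ratios of 0.663 to 0.754 in APP/PS1 and 0.741 to 0.964 in WT. With Itgb4 among the β chains the ratios were 0.438 to 0.486 in APP/PS1 and 0.491 to 0.609 in WT. The ratio was chosen after the values were seen and was given no test.

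Among the α chains, 4 shared most of the total in each genotype. Itga6 made up 31.0% ± 3.83, 28.9% ± 4.31 and 29.2% ± 5.61 of summed α levels in APP/PS1xRIPK1KD, APP/PS1 and WT. Itga1 made up 26.1% ± 2.76, 24.2% ± 4.40 and 26.9% ± 3.08, and Itga5 24.2% ± 4.47, 24.7% ± 4.06 and 23.6% ± 5.34 (SD, n = 3 each). Itga3 followed at 15.5% ± 3.93, 19.3% ± 4.76 and 17.3% ± 2.37, while Itgav stayed between 1.55% and 2.86% and Itga4 at 1.13% or less in every library. No α share separated the genotypes.

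**Figure D4:**
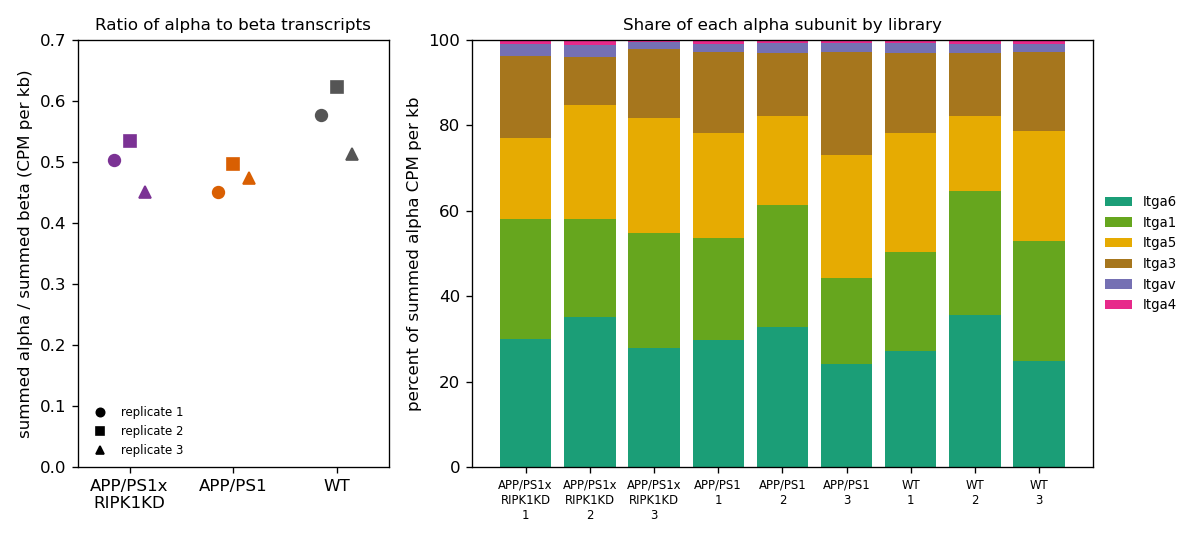
Left, ratio of summed α to summed β levels (CPM per kb) in each library, by genotype, with replicate number by symbol. Right, percent of the summed α level held by each α subunit in each library, where Itga6, Itga1, Itga5 and Itga3 fill all but a few percent of every bar.

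Levels of partner chains were compared across the 9 libraries. Of 8 known α and β pairs, 0 passed after Benjamini-Hochberg adjustment over the 8 (exact permutation tests, 2-sided). For the fibronectin receptor pair Itga5 and Itgb1, Pearson's r was 0.663 (exact permutation p 0.0533, adjusted 0.259) and Spearman's rho 0.65 (exact permutation p 0.0666, adjusted 0.266). Without the 2 libraries farthest from the Itga5 median, r for that pair was 0.17, and within replicates 1 and 2 it was 0.63. Leaving out extremes of Itga5 can by itself lower r, so the 0.17 does not show what the pair rested on. For the vitronectin receptor pair Itgav and Itgb3, r was -0.635 (exact permutation p 0.0646, adjusted 0.259) and rho -0.683 (exact permutation p 0.0503, adjusted 0.266). Without the 2 libraries farthest from the Itgav median, r for Itgav and Itgb3 was -0.547, and within replicates 1 and 2 of each genotype it was -0.0692.

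As a description, the gene of at least 20 CPM whose log2 level ran most alike was found for each member over the 9 libraries, whose depth and preparation are common to both genes. Itga5 ran closest to Ehbp1l1 (r 0.98, rho 0.93), Itga3 to Traf6 (r 0.97, rho 0.95), Itgav to Baz1b (r 0.96, rho 0.98) and Itgb1 to Trak2 (r 0.95, rho 0.95). Itga6 ran closest to Ddc (r 0.95), Itgb5 to Cactin (0.94), Itga1 to Pex2 (0.93), Itga4 to Pml (0.93) and Itgb3 to Tmem51 (0.92). Each was the highest of 6416 or 6417 candidates, and no test was made of these values.

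Of the 19 genes listed as other integrin subunits, among them the integrin-like Itgbl1, Itgb4 was the only one above 5 CPM on average. Itgb4 encodes the β chain of the laminin receptor α6β4. It had 12.1, 16.3 and 32.3 CPM in APP/PS1xRIPK1KD, 29.9, 17.1 and 40.4 CPM in APP/PS1, and 30.5, 15.6 and 34.5 CPM in WT. Replicate 3 was the highest library of each genotype and the genotypes overlapped. At 3.62 CPM per kb it stood between Itga3 and Itgav, which places it above Itgb5 and Itgb3 as the second β chain in these cells. Its log2 fold change was -0.52 ± 0.406 (SE) for APP/PS1xRIPK1KD against APP/PS1 (edgeR quasi-likelihood test, FDR 1), 0.11 ± 0.405 for APP/PS1 against WT (FDR 0.989) and -0.41 ± 0.405 for APP/PS1xRIPK1KD against WT (FDR 0.979). Without APP/PS1xRIPK1KD replicate 3 the values of APP/PS1xRIPK1KD were -1.03 against APP/PS1 (unadjusted p 0.0249, FDR 0.732 in the same test) and -0.91 against WT (p 0.0406, FDR 0.825). Without APP/PS1 replicate 3 the first was -0.21, and without APP/PS1xRIPK1KD replicate 1 the second was -0.14.

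The leukocyte integrins were low. Itgax had 0 counts in all 9 libraries, Itgb2, the shared β chain of leukocyte integrins, had counts in 3 of 9, at 1.24 CPM or less, and Itgam reached 0.451 CPM at most. Other chains of lymphocyte integrins were higher in single libraries. Itgb7 had counts in 8 of 9 libraries with a mean of 1.74 and a maximum of 4.45 CPM, Itgal in 6 of 9 with a maximum of 2.80 CPM, and Itgae in 4 of 9 with a maximum of 2.47 CPM. The leukocyte markers summed to 0.847 to 3.13 CPM in APP/PS1xRIPK1KD, 1.7 to 3.35 CPM in APP/PS1 and 1.34 to 3.66 CPM in WT. Itga7 and Itga8 were uneven, with highest values of 6.02 and 3.58 CPM, both in APP/PS1 replicate 2. Of the 19, 9 were tested, and 0 passed in any of the 3 comparisons by edgeR, DESeq2 or limma-voom. At an unadjusted p under 0.05 by edgeR the count was 1 in APP/PS1xRIPK1KD against APP/PS1 (Itga2b), where 4.78% of all genes were. It was 2 in APP/PS1 against WT (Itga8 and Itgb2, against 6.14% of all genes). In APP/PS1xRIPK1KD against WT it was 1 (Itga8, against 6.18%). In WT, Itga8 and Itgb2 averaged 0.016 and 0 CPM, so their values rest on counts near 0.

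Inside the cell, integrin tails are switched on by talins and kindlins and coupled to actin by vinculin, filamin, the ILK complex and zyxin. Of 36 listed activators and adaptors, 34 were tested, and 0 passed in any comparison by edgeR, DESeq2 or limma-voom. The counts at an unadjusted p under 0.05 by edgeR were 0 for APP/PS1xRIPK1KD against APP/PS1, 1 for APP/PS1 against WT and 2 for APP/PS1xRIPK1KD against WT. The shares of all tested genes at that p were 4.78%, 6.14% and 6.18% in the same order. Flna, the actin crosslinker filamin A that binds β tails, had 117, 156 and 149 CPM in APP/PS1xRIPK1KD, 132, 123 and 161 CPM in APP/PS1, and 112, 87.2 and 111 CPM in WT. Both amyloid genotypes lay above WT without overlap, which in either direction was so for 12% of all genes in APP/PS1xRIPK1KD against WT and 10.9% in APP/PS1 against WT, with log2 fold changes of 0.44 ± 0.159 (SE) for APP/PS1xRIPK1KD against WT (edgeR quasi-likelihood test, FDR 0.686) and 0.43 ± 0.16 for APP/PS1 against WT (FDR 0.787). These comparisons share the WT libraries. The share of counts taken by the ribosomal RNA precursor Rn45s also separated WT, at 29.7% to 33.8%, from APP/PS1xRIPK1KD, at 20.2% to 26.4%, and APP/PS1, at 15.8% to 28.6%, and its part in the Flna values was not tested.

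The kindlin-2 gene Fermt2 averaged 338 ± 4.37 CPM in APP/PS1xRIPK1KD and 276 ± 13.2 CPM in WT (SD, n = 3 each), at 0.30 ± 0.124 (SE; edgeR quasi-likelihood test, FDR 0.776). Vcl, which encodes vinculin, averaged 177 ± 23.9 CPM in APP/PS1 and 143 ± 16.9 CPM in WT, at 0.31 ± 0.144 (FDR 0.819). In APP/PS1xRIPK1KD against APP/PS1, the focal adhesion gene Zyx was at -0.41 ± 0.216 and the tetraspanin gene Cd9, a membrane partner of integrins, at -0.45 ± 0.239, each with FDR 1. None of these differences passed the threshold. Summed mural cell markers, from pericytes and smooth muscle cells that also express adhesion genes, stood at 69.9 to 264 CPM in APP/PS1xRIPK1KD, 190 to 244 CPM in APP/PS1 and 13.2 to 60.5 CPM in WT, with 13 of 14 markers detected in every APP/PS1xRIPK1KD library, 14 of 14 in every APP/PS1 library and 11 of 14 in every WT library. Their part in the adaptor values was not tested.

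On the ligand side, edgeR called 1 gene. Of 37 listed matrix and cell-surface ligands, 34 were tested. Vtn, vitronectin, a ligand of αvβ3 and αvβ5 and a known pericyte transcript, was the single one past the threshold, higher in APP/PS1 than in WT. It had 25.5, 26.9 and 47.0 CPM in APP/PS1xRIPK1KD, 48.2, 52.9 and 59.5 CPM in APP/PS1, and 9.65, 3.24 and 7.47 CPM in WT. The log2 fold change was 2.98 ± 0.365 (SE) for APP/PS1 against WT (edgeR quasi-likelihood test, FDR 0.0135) and 2.29 ± 0.355 for APP/PS1xRIPK1KD against WT (FDR 0.0501). The first was no longer called with replicates 1 and 2 alone (FDR 0.116), without APP/PS1 replicate 1 (0.0505) or replicate 3 (0.062), or without WT replicate 3 (0.061). Vtn is itself 1 of the mural markers above, whose sums lay above those of WT in both amyloid genotypes, and their part in its value was not tested. Its receptor chains Itgav, Itgb3 and Itgb5 lay at -0.04, -0.96 and -0.55 in APP/PS1 against WT, none past the threshold.

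By edgeR, 5 of the 34 ligands had an unadjusted p under 0.05 in APP/PS1xRIPK1KD against APP/PS1 (4.78% of all genes), 10 in APP/PS1 against WT (6.14% of all genes) and 8 in APP/PS1xRIPK1KD against WT (6.18% of all genes), and Vtn alone passed the FDR threshold, in APP/PS1 against WT. Both counts against WT include Vtn, Spp1, Col1a2, Col3a1 and Edil3, each higher than in WT. In WT, Spp1, Col1a2, Col3a1 and Edil3 averaged 0, 0.035, 0.256 and 0.22 CPM, so their values rest on counts near 0. The count of APP/PS1 against WT also includes Cyr61, higher at a log2 fold change of 1.79. It further includes basement membrane genes that were lower than in WT. These were Lamb1 (-1.9), Nid2 (-0.68), Hspg2 (-0.68) and Col4a2 (-0.61). Col1a2 and Col3a1 are also fibroblast markers. The 6 fibroblast markers summed to 2.06 to 7.26 CPM in APP/PS1xRIPK1KD, 6.82 to 13.4 CPM in APP/PS1 and 0.132 to 1.24 CPM in WT, with Lum at 0 in every library, and their part in the ligand values was not tested. DESeq2 called 3 ligands in APP/PS1 against WT (Vtn, Spp1 and Cyr61), 1 in APP/PS1xRIPK1KD against WT (Vtn) and 0 in APP/PS1xRIPK1KD against APP/PS1. The basement membrane gene Nid2, nidogen-2, averaged 57.5 ± 21.3 CPM in APP/PS1xRIPK1KD and 32.2 ± 5.13 CPM in APP/PS1 (SD, n = 3 each; 0.83 ± 0.262 SE, edgeR quasi-likelihood test, FDR 0.98). Cyr61, a matricellular ligand of αvβ3, averaged 59.6 ± 10.3 CPM in APP/PS1xRIPK1KD and 154 ± 99.1 CPM in APP/PS1 (-1.37 ± 0.431, FDR 0.98). Ctgf, a related matricellular protein, averaged 32.6 ± 9.13 CPM in APP/PS1xRIPK1KD and 60.1 ± 31.1 CPM in WT (-0.88 ± 0.325, FDR 0.705). Fn1, the fibronectin bound by α5β1, averaged 931 ± 53.5, 1069 ± 48.6 and 1131 ± 155 CPM in APP/PS1xRIPK1KD, APP/PS1 and WT, named here after its values were seen.

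All 9 members were among the 12460 genes in the authors' deposited table for APP/PS1 against WT, which held 26 genes past an FDR of 0.05. None of the members was among them. The lowest FDR of a member in the authors' deposited table was 0.882, for Itgb3 at a log2 fold change of -1.04. For 7 of 9 members the sign in the authors' deposited table was that of the fit made here. Itga5 and Itga6 differed in sign, at 0.0365 and 0.0595 in the authors' deposited table and -0.0044 and -0.0745 here.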

How the data were processed

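Bulk RNA of sorted brain endothelial cells was measured in 9 Smart-seq2 libraries, made from 1.5 ng of RNA with 12 cycles of PCR and read over 50 and 25 bases. The deposited matrix holds the authors' expected counts for each gene symbol. The submitters' processing notes name Bowtie 0.12.2, RSEM (no version), edgeR 3.10.2 and the build mm10 (GRCm38), with no annotation named. The authors also deposited a table of APP/PS1 against WT with log2 fold changes, a likelihood ratio score, a p-value and its FDR, per the file headers.

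Expected counts were rounded. Genes were kept by filterByExpr (minimum count 10, minimum total 15) and scaled by TMM. An edgeR quasi-likelihood model (robust, with a mean for each genotype) took in all 9 libraries. Benjamini-Hochberg adjustment was over 13317 genes, with a threshold of 0.05. The model was also run on counts simulated from its own means and spread, which cannot show how well it describes these data. Each SE was the size of the log2 fold change divided by the square root of the test's F statistic. Intervals of 95% use that SE and the model's degrees of freedom, and are symmetric on the log2 scale. Levels per kb use the union of exons of GENCODE M21. Smart-seq2 reads carry no molecular identifiers, so counting error understates technical error. The p-values of the model weigh a difference between genotypes against the spread between libraries, and those of the correlations come from permuting the 9 libraries.

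Named genes were all members, and for each list and comparison the genes past the threshold or, failing that, the 2 of lowest p among those of at least 5 CPM on average, plus the most alike gene of at least 20 CPM for each member (log2 CPM, prior count 2). Genes outside this rule (Ripk1, Itga2b, Itga7, Itga8, Itgae, Itgal, Itgam, Itgax, Itgb2, Itgb7, Itgbl1, Spp1, Col1a2, Col3a1, Col4a2, Edil3, Fn1, Hspg2, Lamb1) were named after their values were seen or as label checks. The members and lists were chosen with earlier results of these data known. Correlations used exact permutation. Alternatives were DESeq2, limma-voom, RLE scaling, no filter, the replicate number as a block, replicates 1 and 2 only, 6 libraries per fit, leaving out each library, and other lengths. Recomputing the named list genes under these settings, and the longest transcript and Itgb4 for the α and β sums, were added after seeing the data. Software was R 4.3.3, edgeR 4.0.16, limma 3.58.1, DESeq2 1.42.0, Python 3.11.15, numpy 2.4.6, pandas 2.3.3 and matplotlib 3.10.9.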

Additional observations from a re-analysis of the deposited data

How the results depend on the processing

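In 432 recomputed member values (27 values, 16 settings), 0 were called, 3 had an unadjusted p under 0.05, 41 changed sign, and 11 of the 27 kept their direction in all 16 settings. Sign changes outside the leaving-out of single libraries were, in APP/PS1 against WT, Itga5 with DESeq2 (0.00442), limma-voom (0.000427) and RLE scaling (0.00412), Itgav with limma-voom (0.00337) and Itga3 with replicates 1 and 2 only (-0.0708). In APP/PS1xRIPK1KD against APP/PS1 they were Itgb3 with limma-voom (-0.158) and the replicate block (-0.122), and with replicates 1 and 2 only Itgb3 (-0.687), Itga1 (-0.161) and Itga6 (-0.0459). In APP/PS1xRIPK1KD against WT they were, with replicates 1 and 2 only, Itgb5 (-0.0485) and Itga4 (0.0458). The cause was not tested.

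Leaving out 1 library at a time, values that changed sign ranged as follows. In APP/PS1xRIPK1KD against APP/PS1: Itgb3 -0.781 to 0.633, Itga1 -0.0918 to 0.154, Itga4 -0.0871 to 0.415, Itga5 -0.206 to 0.126, Itga6 -0.0922 to 0.135, Itgav -0.0553 to 0.32. In APP/PS1 against WT: Itga3 -0.0795 to 0.275, Itga5 -0.194 to 0.198, Itga6 -0.206 to 0.0652, Itgav -0.162 to 0.0901, and Itgb4, outside the 9 members, -0.202 to 0.383. In APP/PS1xRIPK1KD against WT: Itgb1 -0.012 to 0.173, Itgb5 -0.196 to 0.519, Itga4 -0.475 to 0.0259, Itga5 -0.274 to 0.122, Itga6 -0.165 to 0.107, Itgav -0.0919 to 0.283.

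Genes called over the whole table numbered 1, 3 and 5 in APP/PS1xRIPK1KD against APP/PS1, APP/PS1 against WT and APP/PS1xRIPK1KD against WT. The counts were 31, 75 and 92 with DESeq2, 0, 2 and 2 with limma-voom, 1, 7 and 14 without the filter, 0, 3 and 8 with replicates 1 and 2 only, 1, 2 and 3 with 6 libraries per fit, and 0 to 4, 1 to 5 and 2 to 9 without 1 library. With the replicate number as a block they were 0, 2 and 0, and Itga3 in APP/PS1xRIPK1KD against APP/PS1 had p 0.0302 (edgeR quasi-likelihood, FDR 0.999). Libraries with the same number correlated at -0.0187 to 0.0983 in their deviations, and 3 of 9 correlated best with their own number, the 3 of replicate 3, which share Y-linked transcripts. No label pairs the numbers and no pair with the same number correlated above 0.1, so the block stayed an alternative. Without division by length 5 of 9 members kept their place in the order of levels. The longest transcript raised the α to β ratio to 0.74 in APP/PS1xRIPK1KD, 0.693 in APP/PS1 and 0.845 in WT. With 3 libraries per genotype and counts as low as 38, Itgb5 and Itgb3 have the least precise values.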
